A study of Mus musculus with 6 samples.

Results

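The 10 genes Fos, Fosb, Fosl1, Fosl2, Jun, Junb, Jund, Atf3, Egr1 and Myc were followed by their symbols among the 46517 genes counted in primary cultures of mouse renal tubule epithelial cells (RTECs). Each of the 10 had 1 row, and all 10 passed the filter on low counts, which kept 15862 genes. RNA sequencing was done on 3 control (CTL) cultures and on 3 cultures given TGF-β1, a profibrotic cytokine that, per the study, induces Notch signaling in epithelia. All 6 cultures came from kidneys of wild-type FvB mice, given in the labels as 4 to 6 weeks old and in the study's methods as younger males. Cells freed by collagenase and passed through a mesh were grown in RPMI with fetal bovine serum, EGF and ITS, kept without serum for 24 h, and then held for 24 h with 50 ng/ml TGF-β1 or, in CTL, without it. No sort of the cells is described, and nothing in the labels says whether each culture came from its own animal, so the tests below measure the spread between these cultures.

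Fos and Jun proteins are bZIP transcription factors that pair through a leucine zipper to form AP-1, which binds a short DNA site. Jun proteins can pair with each other or with Fos proteins, whereas Fos proteins need a Jun partner, and Atf3 is a stress-induced bZIP protein that can pair with Jun proteins and often represses its targets. Egr1 is a zinc finger factor, and Myc pairs with Max at E-boxes to drive growth and ribosome production. Fos, Fosb, Junb, Atf3, Egr1 and Myc are classical immediate early or early response genes, whose transcripts rise within an hour of growth factor, serum or stress signals and fall again soon after. TGF-β1 is known to induce Junb and Fos in many cells within hours and to lower Myc in epithelial cells.

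Of the 10 factors, Fos was the single gene that passed the test in the comparison of the 2 groups: its transcript fell by 1.07 on the log2 scale with TGF-β1. Junb, Jun, Jund, Fosl1, Fosl2 and Fosb had positive differences and Atf3, Egr1 and Myc negative ones, and none of these 9 passed. When the replicate number, shared by 1 CTL and 1 TGF-β1 culture, was entered as a block, Fosl1, Jun, Junb and Jund rose, and Atf3 fell beside Fos. The block raised the calls over all 15862 tested genes too, from 5.00% to 15.1% higher and from 6.69% to 19.1% lower. Egr1, Myc, Fosb and Fosl2 did not pass in either fit.

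The libraries held 28313080 to 34183497 counts on genes, so that 3 counts, the floor used here, were 0.0878 to 0.106 CPM (counts scaled to a total of 1e+06 per library). The lowest count among the 10 factors was well above this floor in every library. Both replicate 2 cultures stood apart. The summed Y-linked transcripts Ddx3y, Eif2s3y, Kdm5d and Uty were at 154 CPM in CTL replicate 2 and 136 CPM in TGF-β1 replicate 2 and at 0.0627 to 0.177 CPM in the other 4 libraries, which goes against male animals in those 4. Xist was at 243 and 198 CPM in the replicate 2 cultures and at 510 to 652 CPM in the other 4, so the replicate 2 cultures held both Y-linked and Xist transcripts. The summed level of 8 epithelial markers (Cdh1, Epcam, Krt8, Krt18, Krt7, Cldn4, Pax8 and Cdh16) was 1436 and 1328 CPM in the replicate 2 cultures and 2716 to 4186 CPM in the others. The summed level of 8 fibroblast markers (Col1a1, Col1a2, Col3a1, Pdgfra, Pdgfrb, Dcn, Lum and Postn) was 2963 and 3611 CPM in replicate 2 and 1555 to 2315 CPM elsewhere. Members differed within each sum. Col1a1, Col1a2, Col3a1, Pdgfrb and Dcn were highest in replicate 2 of each group, while Pdgfra and Postn (338 and 387 CPM) were lowest there. Cdh1, Epcam, Cldn4 and the Krt genes were lowest in replicate 2 of each group. In CTL replicates 1, 2 and 3, however, Pax8 was at 218, 220 and 197 CPM and Cdh16 at 311, 256 and 238 CPM. All 8 epithelial markers exceeded 10 CPM in every library. Of 8 proximal tubule markers, Lrp2 was at 27.7 to 75.8 CPM, Aqp1 at 7.97 to 16.2 CPM in CTL and 0.942 to 1.85 CPM with TGF-β1, and Cubn at 4.15 to 5.08 CPM. The other 5 were at or below 1.21 CPM in every library, among them the transporters of mature proximal tubule Slc34a1, Slc5a2 and Slc22a6, at most 0.353 CPM. In bulk RNA, fewer cells of a type and less RNA per cell cannot be told apart.

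Regulatory sequence is shown for 5 factors whose promoter window held a searched motif, so that Fos, which fell, and Atf3, which was called lower with the replicate block and not without it, can be read beside members that were not called lower. Windows of 300 bases, from 250 before to 50 after the start of transcription, came from RefSeq on GRCm38.p6 and were matched for 7 of the 10 genes, not for Fosl1, Egr1 and Myc. Capitals mark the motif on either strand, and all windows are written 5′ to 3′ along the gene.
Fos, chr12:85473640-85473939 (+ strand): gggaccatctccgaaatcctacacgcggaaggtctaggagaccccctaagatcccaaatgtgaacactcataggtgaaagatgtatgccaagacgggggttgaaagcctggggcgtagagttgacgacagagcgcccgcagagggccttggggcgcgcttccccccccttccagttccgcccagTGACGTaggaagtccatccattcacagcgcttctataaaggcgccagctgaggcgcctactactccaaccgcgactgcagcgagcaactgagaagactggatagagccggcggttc
Atf3, chr1:191183284-191183583 (- strand): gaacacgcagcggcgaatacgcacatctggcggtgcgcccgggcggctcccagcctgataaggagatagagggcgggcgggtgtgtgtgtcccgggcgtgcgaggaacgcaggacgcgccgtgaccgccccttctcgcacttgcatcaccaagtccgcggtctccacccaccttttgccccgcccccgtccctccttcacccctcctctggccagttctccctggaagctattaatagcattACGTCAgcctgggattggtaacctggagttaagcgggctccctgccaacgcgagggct
Jun, chr4:95052173-95052472 (- strand): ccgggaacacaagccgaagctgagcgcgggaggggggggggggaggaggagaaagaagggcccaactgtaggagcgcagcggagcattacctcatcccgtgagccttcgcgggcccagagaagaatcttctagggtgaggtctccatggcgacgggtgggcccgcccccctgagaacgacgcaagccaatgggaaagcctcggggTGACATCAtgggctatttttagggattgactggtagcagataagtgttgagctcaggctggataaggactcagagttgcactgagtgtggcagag
Fosb, chr7:19309996-19310295 (- strand): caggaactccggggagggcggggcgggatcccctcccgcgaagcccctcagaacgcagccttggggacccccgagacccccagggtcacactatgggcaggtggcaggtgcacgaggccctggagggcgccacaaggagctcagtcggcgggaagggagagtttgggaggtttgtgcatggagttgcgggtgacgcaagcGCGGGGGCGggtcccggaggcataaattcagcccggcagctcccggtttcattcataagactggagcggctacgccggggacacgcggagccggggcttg
Fosl2, chr5:32136222-32136521 (+ strand): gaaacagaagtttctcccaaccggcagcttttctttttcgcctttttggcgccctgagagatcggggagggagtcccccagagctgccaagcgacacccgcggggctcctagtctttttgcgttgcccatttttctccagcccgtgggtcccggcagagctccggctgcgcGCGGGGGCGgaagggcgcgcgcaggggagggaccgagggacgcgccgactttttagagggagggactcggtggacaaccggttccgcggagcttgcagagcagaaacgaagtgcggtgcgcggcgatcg

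The Fos window carries TGACGT, a cAMP response element (CRE) that lacks its last letters, at bases -66 to -61 from the start, and the Atf3 window carries the same letters on the other strand, ACGTCA, at -8 to -3. This 6-letter element was present in 7.51% of 32851 windows and in 2 of 7 windows of the factors. It and the Jun variant site below were added to the search after the data were seen. Its presence in Fos and Atf3 is therefore a description only, and its link to their lower counts was not tested. The windows of Junb and Jund, also not called lower, held no searched motif and are not shown. The Jun window carries TGACATCA, the variant AP-1 site known for that gene, at -45 to -38, an 8-letter string found in 3.62% of windows. The Fosb and Fosl2 windows each carry the EGR site GCGGGGGCG, at -50 to -42 and at -79 to -71. EGR sites (GCGTGGGCG or GCGGGGGCG) were in 3.47% of windows. None of the 7 windows held the consensus AP-1 site TGACTCA or TGAGTCA (5.2% of windows), the full CRE TGACGTCA (1.79%), the E-box CACGTG (7.15%), the SMAD palindrome GTCTAGAC (0.213%) or the CArG box (1.63%). Both strands were searched, and a full CRE would also count under the 6-letter element. Sites more than 250 bases before the start were not searched, nor was any site of Fosl1, Egr1 and Myc. The absence of a motif, the CArG box of SRF among them, thus holds for these windows only. The 7 windows ranged from 46.7% to 68.3% GC, against a median of 52.7% over all windows. The RefSeq start behind a window is not always the outermost start of the gene in the GENCODE annotation used for positions. It lies 34706 bases inside the gene for Atf3 and 671 for Fosl2, 1210 bases upstream for Jund, and within 30 bases for the other 4. Motif positions are counted from the RefSeq start.

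Within the Fos family, Fos is the founding member and a short-lived, strong activator. Fos (chr12:85473890-85477273, + strand, GRCm38) had 447, 537 and 496 normalized counts in CTL cultures 1, 2 and 3, and 239, 239 and 227 in TGF-β1 cultures 1, 2 and 3 (counts scaled by the trimmed mean of M-values, TMM, to a common library size). Every TGF-β1 culture lay below every CTL culture, and the TGF-β1 cultures were tightly grouped. The mean went from 494 ± 45.2 to 235 ± 6.81 normalized counts (SD, n = 3 each), a ratio of 0.476. The log2 fold change was -1.07 (SE 0.094, 95% confidence interval -1.30 to -0.84) with an adjusted p of 0.00379 by edgeR's quasi-likelihood test. The 3 same-numbered pairs gave log2 ratios of -0.90, -1.17 and -1.13. Leaving out any 1 culture kept the adjusted p between 0.012 and 0.0356 by edgeR, while leaving out both cultures of replicate 1 or of replicate 3 gave 0.212 and 0.0521 at log2 fold changes of -1.15 and -1.04.

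**Figure D1:**
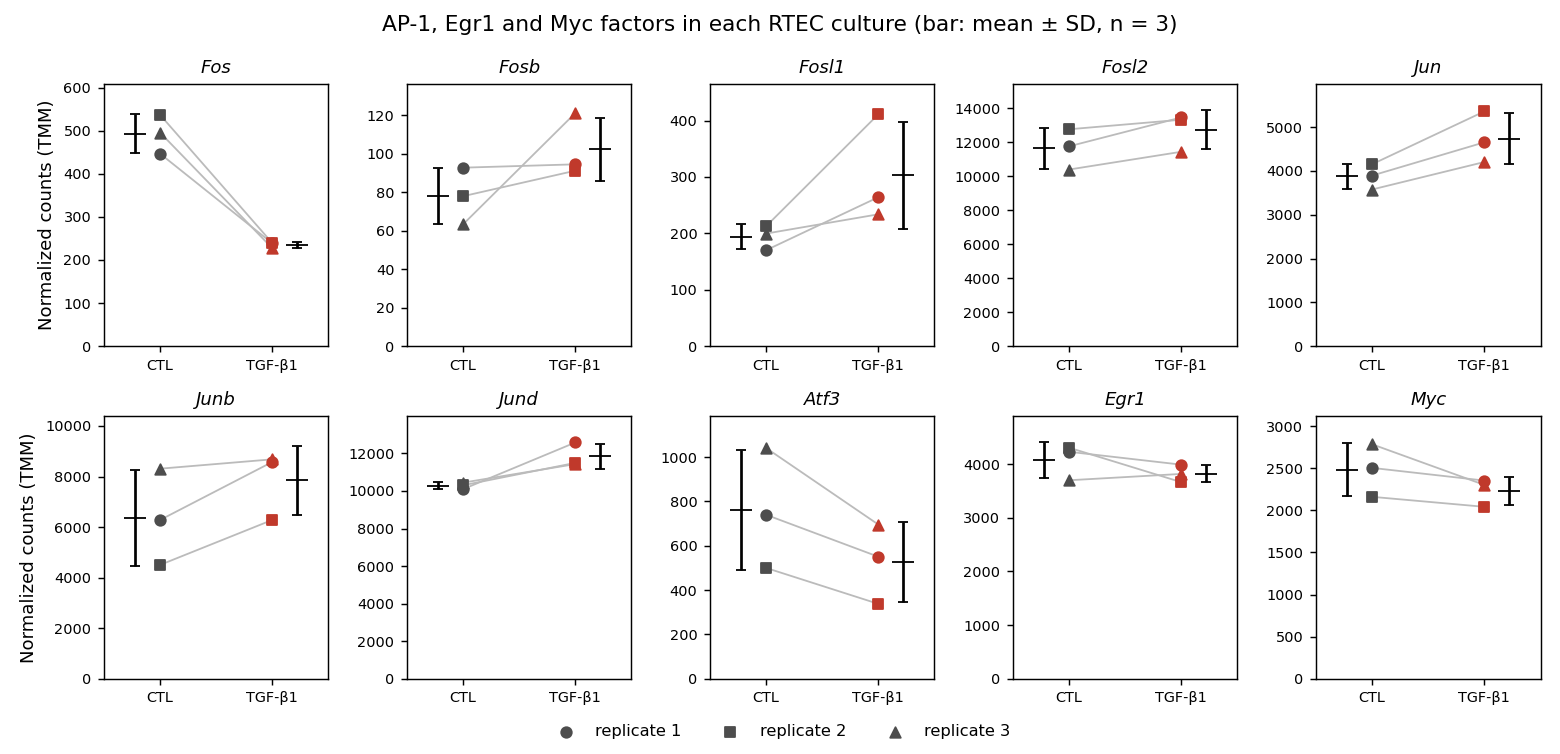
Normalized counts (TMM) of the 10 factors in each culture, on linear axes that start at 0. Circles, squares and triangles are replicates 1, 2 and 3, grey lines join cultures of the same number, and the offset bars are mean ± SD of 3 cultures. Fos sits between 447 and 537 in CTL and between 227 and 239 with TGF-β1, and the lines of Atf3 run parallel at different heights.

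Fosl1 (Fra-1) and Fosl2 (Fra-2) lack the strong activation domain of Fos and Fosb and often replace Fos in AP-1 once an early response is over. Fosl1 (chr19:5447547-5455946, + strand) had 170, 212 and 200 normalized counts in CTL and 264, 411 and 234 with TGF-β1. The groups did not overlap, and the replicate 2 culture was the highest of each group. The log2 fold change was 0.64 (SE 0.23), with an edgeR adjusted p of 0.130, and with the replicate block it was 0.62 (SE 0.14) with an adjusted p of 0.0106. Of the 2033 exonic bases of Fosl1, 1163 lie over Ccdc85b on the opposite strand, and the strand setting of the counting is not given in the sources used here. Ccdc85b itself had a log2 fold change of 0.40 (edgeR adjusted p = 0.241) and was also highest in replicate 2 of each group, at 749 and 1109 normalized counts. If strand was not used in counting, reads over both genes would be ambiguous and left out, so the level of Fosl1 per kb of exon is uncertain.

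Fosl2 (chr5:32135801-32157842, + strand) was by far the most counted Fos family gene, with 11752, 12755 and 10386 normalized counts in CTL and 13452, 13319 and 11432 with TGF-β1. The groups overlapped, although all 3 pairs were higher with TGF-β1. Its log2 fold change was 0.13 (SE 0.10, edgeR adjusted p = 0.453, and 0.0654 with the block). Fosb (chr7:19302696-19310051, - strand) was the least counted factor, at 92.7, 77.9 and 63.2 normalized counts in CTL and 94.5, 91.2 and 121 with TGF-β1. Its groups overlapped too, and the pair ratios ran from 0.027 to 0.93 on the log2 scale. The log2 fold change of Fosb was 0.39 (SE 0.20), with an edgeR adjusted p of 0.259 and 0.156 with the block.

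Among the Jun genes, Jun and Junb respond to signals while Jund is present in most resting cells. Jun (chr4:95049034-95052222, - strand), an intronless gene and the strongest activator of the family, had 3895, 4153 and 3576 normalized counts in CTL and 4655, 5361 and 4205 with TGF-β1. The groups did not overlap, and replicate 2 was again the highest of each group. Its log2 fold change was 0.29 (SE 0.10, edgeR adjusted p = 0.123), and the block gave 0.29 with an SE of 0.045 and an adjusted p of 0.00208. Junos, an antisense transcript over 232 of the 3189 exonic bases of Jun, had 8 to 22 counts per library, far below Jun.

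Junb (chr8:84974484-84978718, - strand), which can dampen Jun activity and is a known early TGF-β target, had 6279, 4501 and 8310 normalized counts in CTL and 8576, 6282 and 8680 with TGF-β1. The groups overlapped because the cultures of 1 group differed more than the groups did: in CTL, replicate 3 was highest and replicate 2 lowest, and the same order held with TGF-β1. The log2 fold change was 0.30 (SE 0.24, edgeR adjusted p = 0.470), and with the block it was 0.33 (SE 0.084, adjusted p = 0.0227). The log2 ratios of the 3 pairs were 0.45, 0.48 and 0.063. Junb shares 173 of 2301 exonic bases with Prdx2, whose log2 fold change was 0.21 (edgeR adjusted p = 0.109).

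Jund (chr8:70698949-70700616, + strand), also intronless, was the steadiest factor in CTL, at 10095, 10301 and 10442 normalized counts, and stood at 12581, 11496 and 11431 with TGF-β1. The groups did not overlap. The rise of the mean was small: the log2 fold change was 0.20 (SE 0.057), and the edgeR adjusted p was 0.0722 without the block and 0.0187 with it. DESeq2 gave 0.21 and an adjusted p of 0.0174. An antisense gene, Gm11175, lies over 877 of the 1668 exonic bases of Jund and was listed at 0 counts in all 6 libraries. The level of Jund per kb of exon has the same limit as that of Fosl1, since the strand setting is not given.

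Atf3 (chr1:191170296-191218039, - strand) had 740, 500 and 1041 normalized counts in CTL and 550.5, 338 and 696 with TGF-β1. Each TGF-β1 culture was below its same-numbered CTL culture, but the groups overlapped, since replicate 3 was highest and replicate 2 lowest in both. The 3 pairs gave log2 ratios of -0.43, -0.57 and -0.58. Without the block the log2 fold change was -0.52 (SE 0.35, edgeR adjusted p = 0.385), and with it the same -0.52 had an SE of 0.065 and an adjusted p of 0.000665. The order of replicates in Atf3 and Junb was that of the epithelial marker sum, which was 2927, 1436 and 4186 CPM in CTL and 2716, 1328 and 3425 CPM with TGF-β1. In CTL, the epithelial markers Pax8 and Cdh16 did not have this order. The part of epithelial content in the levels of Atf3 and Junb was not tested. Without the replicate 2 cultures the log2 fold change was -0.51 for Atf3 and 0.24 for Junb, with edgeR adjusted p-values of 0.161 and 0.293. Leaving out 1 culture moved Atf3 further, to -0.23 without CTL replicate 3, -0.29 without TGF-β1 replicate 2, and -0.78 without TGF-β1 replicate 3. Junb went to 0.11 without CTL replicate 2 and 0.54 without CTL replicate 3. None of these single-culture fits called either gene by edgeR. With both replicate 2 cultures left out, the log2 fold change was 0.43 for Fosl1 and 0.25 for Jun, with edgeR adjusted p-values of 0.101 and 0.0751.

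**Figure D2:**
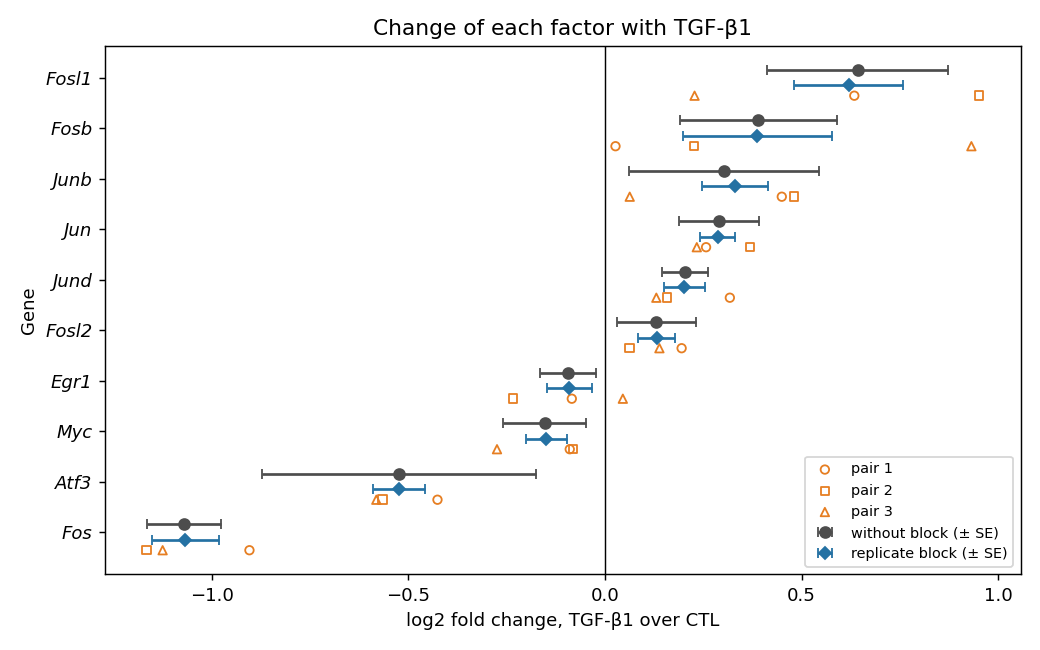
Log2 fold change of each factor, TGF-β1 over CTL, ordered by size along the vertical axis. Grey circles (no block) and blue diamonds (replicate block) are edgeR estimates with bars of ± 1 SE, and open orange symbols are the ratios of same-numbered pairs. Both estimates lie close together for each gene, and the SE of Atf3 goes from 0.35 to 0.065 and that of Junb from 0.24 to 0.084.

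Egr1 (chr18:34859823-34864984, + strand), which is induced through serum response factor (SRF) and its ternary complex partners, had 4232, 4308 and 3701 normalized counts in CTL and 3992, 3665 and 3819 with TGF-β1. The groups overlapped, and 2 of 3 pairs were lower. The log2 fold change was -0.09 (SE 0.071, 95% confidence interval -0.27 to 0.08), with an edgeR adjusted p of 0.450 and 0.260 with the block. Myc (chr15:61985391-61990374, + strand) had 2505, 2161 and 2786 normalized counts in CTL and 2354, 2043 and 2303 with TGF-β1. All 3 pairs were lower, yet the groups overlapped, and replicate 2 was the lowest of each group. The log2 fold change of Myc was -0.15 (SE 0.11, 95% confidence interval -0.41 to 0.10), with an edgeR adjusted p of 0.395 and 0.0626 with the block.

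Counted together, 0 of the 10 factors were called higher and 1 was called lower by edgeR without the block, where 5.00% and 6.69% of all 15862 tested genes were. At an unadjusted p under 0.05, 3 factors were higher (Fosl1, Jun and Jund) and 1 was lower, beside 13.2% and 15.4% of all genes. DESeq2 called 1 higher (Jund, with 7.57% of all genes called higher) and limma-voom called 0. With the replicate block 4 were higher and 2 lower, against 15.1% and 19.1% of all genes. The normalized counts of the groups did not overlap for 3 factors that were higher and 1 that was lower, against 17.2% and 18.0% of all genes. Without both replicate 2 cultures 0 were called higher and 1 was called lower, Fos, where 6.79% and 8.09% of 15955 tested genes were. The median log2 fold change of the 10 factors was 0.17, with 6 positive values, and that of all tested genes was -0.0028. With 3 cultures a group an exact permutation test of a single gene cannot go below p = 0.1.

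Levels were compared between genes per kb of exon, as CPM divided by the merged exon length. In CTL, Jund was the most abundant factor at 195 ± 3.30 CPM per kb (SD, n = 3), followed by Junb at 87.3 ± 26.2. Jun (38.4 ± 2.86) and Fosl2 (37.9 ± 3.88) came next and did not differ beyond their spread, nor did Myc (28.9 ± 3.64) and Egr1 (28.7 ± 2.33). Atf3 stood at 11.1 ± 3.98, Fos at 6.63 ± 0.607, Fosl1 at 3.01 ± 0.338 and Fosb at 0.394 ± 0.0745 CPM per kb. With TGF-β1 the means were 224 for Jund, 108 for Junb, 46.9 for Jun, 41.5 for Fosl2, 26.9 for Egr1, 26.0 for Myc, 7.74 for Atf3, 4.71 for Fosl1, 3.16 for Fos and 0.517 for Fosb. Fos was thus above Fosl1 in every CTL culture and below it in every TGF-β1 culture on this scale. Neighbours that overlapped with TGF-β1 were Jun and Fosl2, Egr1 and Myc, and Atf3 and Fosl1. When only exon not shared with another gene entered the length, Fosl1 was at 7.04 and Fos at 6.63 CPM per kb in CTL with overlapping values, and at 11.0 and 3.16 with TGF-β1, where they did not overlap. Jund still came first by that length, at 410 CPM per kb in CTL and 473 with TGF-β1. Without division by length, Fosl2 came first at 367 CPM in CTL and overlapped Jund at 325 CPM. On that scale Fos (15.6 CPM) was above Fosl1 (6.13 CPM) in CTL without overlap. With TGF-β1, Fosl1 (9.57 CPM) and Fos (7.42 CPM) overlapped.

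**Figure D3:**
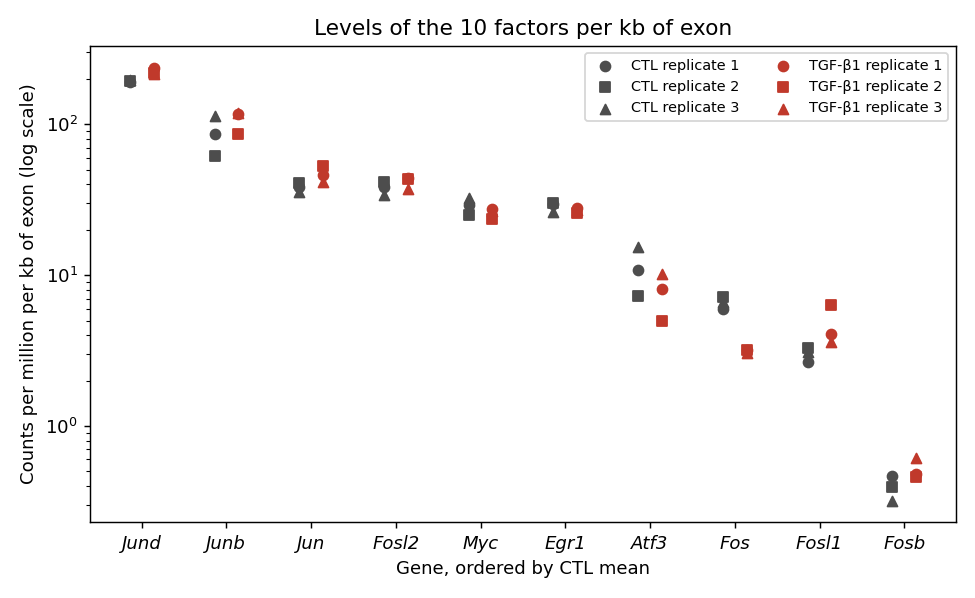
Level of each factor in each culture, in CPM per kb of exon on a log axis, with genes ordered by their CTL mean. Grey symbols are CTL and red symbols TGF-β1, with circles, squares and triangles for replicates 1, 2 and 3. Jund lies near 195 in CTL and Fosb near 0.394. Fos and Fosl1 change places between the groups on this scale, and they overlap in CTL by exon length not shared with another gene.

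As a share of the summed level per kb of its family, Fos went from 13.8% ± 1.25 to 6.35% ± 0.438 of the Fos family (SD, n = 3), with no overlap between the groups. The family sum itself was 48.0 ± 4.30 CPM per kb in CTL and 49.9 ± 4.71 with TGF-β1, and its values overlapped. Fosl1 made up 6.30% ± 0.743 in CTL and 9.34% ± 2.25 with TGF-β1, and Fosl2 79.0% ± 1.87 and 83.3% ± 1.90, both without overlap. Fosb was 0.822% and 1.05% with overlap. Each of the shares of Fos, Fosl1 and Fosl2 reached the smallest p that an exact two-sided permutation test of 3 against 3 cultures allows, 0.1 (0.233 after Benjamini-Hochberg adjustment over 7 genes). With unshared exon length alone, Fosl2 held 72.9% and 74.1% and its groups overlapped, while Fos and Fosl1 were still without overlap. The Jun family sum was 320 ± 24.9 CPM per kb in CTL and 379 ± 22.6 with TGF-β1, without overlap (exact p = 0.1). The shares within the Jun family overlapped throughout: Jun held 12.1% and 12.5%, Junb 27.0% and 28.3%, and Jund 61.0% and 59.2%. By unshared exon length these shares were 7.61% and 7.95% for Jun, 17.1% and 18.2% for Junb, and 75.2% and 73.9% for Jund, again with overlap.

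AU-rich elements in the 3′ untranslated region mark many short-lived transcripts. In the longest annotated one of each gene, the nonamer TTATTTATT was found once in Fos and once in Fosl2 and not in the other 8 factors, so in 2 of 10, against 8.38% of 13370 tested genes. The pentamer ATTTA occurred 4 times in Fos and Jun, 8 times in Fosl2, and 1 to 3 times in the other factors, with a median of 2 over the tested genes. These counts were not divided by length. The region had 4656 bases in Fosl2, 1236 in Jun and 818 in Fos, against a median of 1205.5.

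The related genes were taken from lists of pathway members and textbook targets. Their counts stand beside 5.00% of all tested genes called higher and 6.69% lower without the block. With the block these shares were 15.1% and 19.1%. Of 20 other bZIP genes of the AP-1 superfamily, 17 were tested, and 3 were higher and 1 was lower by edgeR without the block. Nfil3, a bZIP repressor, rose from 1245 ± 94.9 to 1658 ± 123 normalized counts (log2 fold change 0.41, edgeR adjusted p = 0.0284). Atf4, the factor of the integrated stress response, rose by 0.25 (adjusted p = 0.0286), and Mafg, a small Maf protein, by 0.22 (adjusted p = 0.0423), both on the log2 scale by edgeR. Maff, another small Maf, fell from 3067 ± 235 to 2162 ± 176 normalized counts (log2 fold change -0.50, edgeR adjusted p = 0.0173). The median of the list was 0.01 on the log2 scale, near that of all tested genes, and the block gave 4 higher and 3 lower.

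The relatives of Egr1 were few. Of 5 Egr genes and Nab corepressors, 4 were tested, and 0 were called in either direction by edgeR without the block, with 1 higher and 1 lower at an unadjusted p under 0.05 (limma-voom called 0, and DESeq2 called 1 higher). Nab1 and Nab2, corepressors that bind Egr proteins and the most counted of the list, had log2 fold changes of -0.20 and -0.14 (edgeR adjusted p = 0.0971 and 0.780). Egr2, singled out after its values were seen, had 189, 307 and 194 normalized counts in CTL and 482, 1054 and 426 with TGF-β1. Its groups did not overlap, and its log2 fold change of 1.51 had an edgeR adjusted p of 0.0676 without the block and 0.000134 with it. Nab1 was the 1 gene of the list called lower with the block.

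Of 13 genes of the Myc network, 12 were tested, and 1 was higher and 2 were lower. Mycn, the paralog of Myc that marks progenitor cells of the developing kidney, fell from 524 ± 72.6 to 214 ± 12.9 normalized counts (log2 fold change -1.29, edgeR adjusted p = 0.00414). Mxd3, a Max partner, fell from 49.9 ± 10.1 to 12.2 ± 3.62 normalized counts (log2 fold change -2.02, edgeR adjusted p = 0.012). Mxd1, a Max partner that opposes Myc and is induced in differentiating cells, rose from 720 ± 71.4 to 1076 ± 160 normalized counts (log2 fold change 0.58, edgeR adjusted p = 0.0387). The block gave 1 higher and 3 lower, and the list median was -0.01.

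Upstream of the immediate early genes, 3 of the 6 SRF and ternary complex genes were higher and 0 were lower by edgeR, with 4 and 0 at an unadjusted p under 0.05, and DESeq2 and limma-voom also called 3 and 0. Srf went from 3002 ± 60.2 to 3950 ± 371 normalized counts (log2 fold change 0.40, edgeR adjusted p = 0.0247). Elk3, a ternary complex factor, rose by 0.40 (edgeR adjusted p = 0.0155), and Mrtfa, the actin-regulated coactivator of SRF, by 0.43 (edgeR adjusted p = 0.0128), both on the log2 scale. The list median was 0.28 and the block gave 4 higher and 0 lower. Without CTL replicate 1 or without TGF-β1 replicate 1, edgeR called 0 of the 6. Those fits called few genes at all: 109 higher and 186 lower of 16150, and 128 higher and 193 lower of 16201. Of 16 MAP kinase genes, 2 were higher and 1 was lower, with a list median of 0.06. Map2k1 (MEK1) had a log2 fold change of 0.38, Mapk8 (JNK1), whose product phosphorylates Jun, 0.23, and Rps6ka3 (RSK2) -0.25, with edgeR adjusted p-values of 0.0405, 0.0375 and 0.0448. The block gave 3 higher and 6 lower in this list. Leaving out CTL replicate 1 or 2, or TGF-β1 replicate 1 or 3, left 0 of the 16 called by edgeR. Over all 16139 to 16212 tested genes, those fits called 109 to 412 higher and 186 to 612 lower.

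Of 9 genes for the turnover of Jun, Fos and Myc proteins, 1 was called higher and 0 lower (1 lower at an unadjusted p under 0.05 by edgeR, 1 lower by DESeq2 and 0 by limma-voom). It was Fbxw7, the ubiquitin ligase subunit that marks phosphorylated Jun and Myc for degradation. Fbxw7 had 1513, 1442 and 1479 normalized counts in CTL and 2005, 2106 and 2040 with TGF-β1. The groups lay well apart, with a log2 fold change of 0.47 (SE 0.046, edgeR adjusted p = 0.00436). The list median was near 0, and the block gave 2 higher and 1 lower.

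Of 18 other immediate early genes, 4 were higher and 0 lower by edgeR without the block (1 lower at an unadjusted p under 0.05, 1 by DESeq2 and 0 by limma-voom), and 7 were higher and 5 lower with it. Arc, a neuronal activity gene that is a direct SRF target, had 520, 288 and 565 normalized counts in CTL and 2072, 1522 and 1731 with TGF-β1, a log2 fold change of 1.96 (edgeR adjusted p = 0.0117). Ier5 rose by 0.77 and Btg1, an antiproliferative gene, by 0.35 on the log2 scale (edgeR adjusted p = 0.00362 and 0.0329), and Srf, described above, was the other gene called higher. The list median was 0.01, so higher and lower values were about balanced, with 9 of 18 positive.

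Textbook targets of the factors were counted in the same fit. Of 24 AP-1 targets, 22 were tested, and 4 were higher and 1 was lower, with a list median of 0.31. Il11, a cytokine of fibrosis, rose from 742 ± 200 to 6682 ± 2538 normalized counts (log2 fold change 3.17, edgeR adjusted p = 0.00692). Hbegf, an EGF receptor ligand, rose by 0.92 on the log2 scale (edgeR adjusted p = 0.0318). Ccnd1, the cyclin that drives entry into the cell cycle, fell from 8732 ± 806 to 4306 ± 934 normalized counts (log2 fold change -1.02, edgeR adjusted p = 0.0166). The block gave 12 higher and 5 lower, and DESeq2 gave 8 and 3.

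Of 11 Egr1 targets, 3 were higher and 1 was lower by edgeR, and 4 and 3 with the block. Fn1 (fibronectin) rose by 1.04, Tgfb1 itself by 0.80 and Pdgfa by 0.71 on the log2 scale, with edgeR adjusted p-values of 0.00379, 0.0225 and 0.00851. Icam1, an adhesion molecule, went from 2086 ± 562 to 945 ± 261 normalized counts (log2 fold change -1.14, edgeR adjusted p = 0.0468). The list median was 0.00 without the block and 0.05 with it.

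Of 24 Myc targets, mostly ribosome production and nucleotide genes, 0 were called in either direction by edgeR without the block (4 higher and 1 lower at an unadjusted p under 0.05, 1 higher by DESeq2 and 0 by limma-voom), and 3 were higher and 3 lower with it. Ccnd2 and Ncl, the most counted of them, had log2 fold changes of -0.30 and 0.07 (edgeR adjusted p = 0.411 and 0.507), and Ccnd2 was called lower with the block (adjusted p = 0.00309). The list median was 0.07, with 19 of 24 values positive, against 7826 of 15862 over all tested genes. The lists hold genes in common: Srf, Nab2 and Egr2 each stand in 2 lists.

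**Figure D4:**
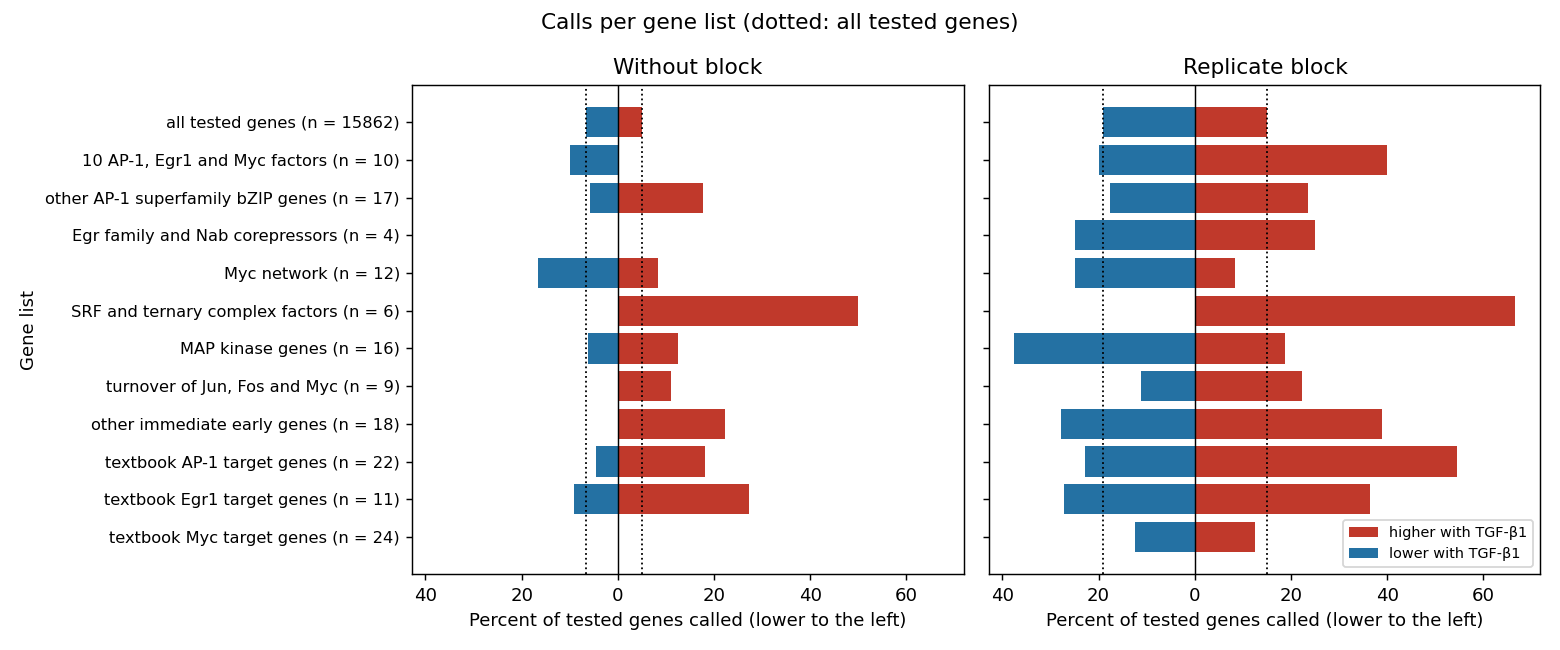
Percent of the tested genes of each list called by edgeR at an adjusted p under 0.05, higher with TGF-β1 to the right and lower to the left, without the block in the left panel and with the replicate block in the right panel. Dotted lines are the percents of all 15862 tested genes, 5.00% and 6.69% without the block and 15.1% and 19.1% with it. The 6 SRF and ternary complex genes have the longest bar to the right in both panels, and a bar of a short list moves far with 1 gene.

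Markers of other cells that the cultures could hold were read in the same libraries. The summed level of 8 proximal tubule markers was 79.9 to 96.6 CPM in CTL and 34.5 to 48.7 CPM with TGF-β1, most of it Lrp2 and Aqp1, which were called lower. The sums of 6 thick ascending limb and distal tubule markers (1.36 to 3.64 and 1.41 to 2.00 CPM) and of 8 collecting duct markers (0.838 to 2.23 and 0.345 to 0.877 CPM) were low in both groups. Of 6 endothelial markers (37.4 to 53.0 and 22.5 to 33.7 CPM), Flt1 made up most, and Pecam1 and Cdh5 did not exceed 0.502 CPM. The sum of 7 leukocyte markers was 9.29 to 21.1 CPM in CTL and 6.15 to 16.8 CPM with TGF-β1, with Ptprc at most 1.16 CPM and Lyz2 at most 12.4 CPM. Of these, Csf1r was called lower, from 3.63 to 4.58 CPM in CTL to 1.13 to 2.13 CPM with TGF-β1 (edgeR adjusted p = 0.0238, and 0.000542 with the block). Podxl, Synpo and Wt1 carried the podocyte sum (458 to 698 and 353 to 407 CPM), while Nphs1 did not exceed 0.186 CPM. By edgeR without the block 2 of 8 epithelial markers were called lower (Pax8 and Cdh16) and 0 of 7 tested fibroblast markers were called, 0 also at an unadjusted p under 0.05 and by DESeq2 and limma-voom. With the replicate block 3 fibroblast markers rose (Col1a1, Col1a2 and Postn) and 2 fell (Pdgfrb and Dcn). The block also called lower 4 of 8 epithelial markers (Cdh1, Epcam, Pax8 and Cdh16), 3 of 5 tested proximal tubule markers and all 3 tested podocyte markers. Over all tested genes, 5.00% were called higher and 6.69% lower without the block, and 15.1% and 19.1% with it. The part of these markers in the changes of the 10 factors was not tested.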

How the data were processed

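The authors deposited whole-number read counts per gene for 6 libraries, 3 CTL and 3 TGF-β1. Per the submitters' processing notes, reads were trimmed with Trim Galore, aligned with STAR 2.4.1d and counted with HTSeq 0.6.1 (builds GRCm38 and mm10). The counts carry no normalization. Entries of the counting that named no gene (no feature, ambiguous or not unique) were 25.4% to 25.9% of all entries in each library and were left out. Entries listed as not aligned were 0 in every library, so this percent does not cover unaligned reads. The strand setting is not given in the sources used here. Floors cover counting error only, since reads had no molecular identifiers. Each group and replicate number was read from the titles of the samples.

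Positions and exon lengths came from GENCODE M21 (GRCm38), which matched 46005 of 46517 identifiers. Counts were fitted in R 4.3.3 with edgeR 4.0.16: filterByExpr, TMM and the quasi-likelihood test (two-sided). P-values of the 15862 genes were adjusted together by the Benjamini-Hochberg method, and 0.05 was the threshold. The F statistic gave the standard errors. The scripts were tested on simulated data.

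The study tested unpaired groups, so the main fit had no block. Deviations from the group means of same-numbered cultures correlated at 0.340, 0.684 and 0.572. Those of other pairs of CTL and TGF-β1 cultures correlated at -0.617 to 0.215. A pairing by number is thus read from the data and not stated in the labels. It was weakest for CTL replicate 1, at 0.340 with TGF-β1 replicate 1 and 0.215 with TGF-β1 replicate 3. Deviations from a mean of 3 cultures are also not independent of each other. Alternatives were the replicate block, DESeq2 1.42.0, limma-voom (limma 3.58.1), RLE normalization, library size only, other count filters, a threshold of 0.01, and leaving out cultures. Exon length not shared with another gene, the 6-letter CRE element, the variant AP-1 site of Jun and the untranslated regions were added after seeing the data. No 2 libraries agreed within sampling noise (chi-square per degree of freedom at least 9.02).

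The 10 factors and all lists were chosen with earlier results of these data known. Named genes were the 10 factors and, per list, the called genes up to the 4 with the largest change, or the 2 most counted where none was called; a few listed genes are counted but not reported here by name. Figures were drawn with matplotlib 3.10.9.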

Additional observations from a re-analysis of the deposited data

How the results depend on the processing

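The direction of all 10 factors held under every alternative. Of the factors, 0 were called higher in the unblocked edgeR fit, 1 with DESeq2 (Jund, 0.21) and 4 with the replicate block (Fosl1 0.62, Jun 0.29, Junb 0.33 and Jund 0.20 on the log2 scale). 1 was called lower in the unblocked fit and 2 with the block (Fos, and Atf3 at -0.52). The block changed no other call among the factors. Leaving out cultures gave 0 to 1 factors called lower and 0 called higher: Fos was lost without replicate 1 in both groups (-1.15) and without replicate 3 in both groups (-1.04), where 4 cultures remained. Without replicate 1 in both groups no gene at all was called by edgeR, with 1938 at an unadjusted p under 0.05. Over all tested genes, 793 were higher and 1061 lower in the unblocked fit, 2388 and 3037 with the block, 1201 and 1521 with DESeq2, 508 and 1467 with library size only, and 127 and 192 at a threshold of 0.01. Leaving out 1 culture moved the log2 fold change by over 1.5 times for Fosl1 and Jun (0.35 and 0.19 without TGF-β1 replicate 2). The same held for Fosb (0.25 without TGF-β1 replicate 3), and for Atf3 and Junb as given with their results. It also held for Fosl2, at 0.06 without CTL replicate 3 and 0.20 without CTL replicate 2 or TGF-β1 replicate 3. Myc moved to -0.06 without CTL replicate 3, -0.10 without TGF-β1 replicate 2 and -0.24 without CTL replicate 2. Egr1 moved to -0.05 without CTL replicate 2 and -0.16 without CTL replicate 3. With any 1 culture left out, 109 to 516 were higher and 186 to 807 lower, fewest when a replicate 1 culture of either group was missing (109 and 128 higher), and leaving out both cultures of a number gave 0 to 1084 and 0 to 1290. Library size only moved the median of all genes to -0.08. The cause of these changes was not tested. Of 340 list counts under an alternative, 113 differed from the reported one by over 1.5 times. Shares of both families depended on the length used. In CTL, without division by length, Fos held 4.00% and Fosl2 93.8% of the Fos family, and Jund 50.3% of the Jun family. Of the genes named with a fold change, Mxd3 rests on the fewest counts.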
